A study of Mus musculus with 9 samples.

Results

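Acyl-CoA thioesterases split fatty acyl-CoA into free fatty acid and coenzyme A. The 6 genes described here, Acot1, Acot2, Acot3, Acot4, Acot8 and Acot12, were taken from 21470 genes in the table. Acot1, Acot2 and Acot3 were chosen because their transcripts were higher in livers of ligated mice given ligustilide than in livers of ligated mice without it. Acot4, Acot8 and Acot12 were taken with them as further acyl-CoA thioesterase genes. The values of that contrast are therefore given as a description, with no test for any of the 6. All 6 were settled on with earlier results of these data known. Comparisons with sham livers share the BDL+LIG or the BDL libraries with the contrast behind the choice. Their p-values are therefore not independent of it for any of the 6.

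RNA was sequenced from mouse liver in 3 groups of 3 libraries. BDL+LIG livers came from mice with bile duct ligation (BDL) that received ligustilide (LIG), a phthalide from the oil of Angelica and Ligusticum roots. BDL livers came from ligated mice with no ligustilide, and sham livers from sham-operated mice. Ligation stops bile flow and is a model of cholestatic liver fibrosis, in which the series asked how ligustilide changes gene expression. The design text gives the dose as 10 mg/kg and the titles of the BDL+LIG samples carry the number 20, so no dose is stated here. Strain, sex, age, and the days of ligation and of dosing are not given in the labels. Nothing in them says that each library came from its own mouse, so p-values may rest on technical variation between libraries only. In RNA from whole liver, fewer cells of a type and less RNA per cell cannot be told apart.

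The enzymes sit in different compartments of the cell. Acot1 and Acot12 are cytosolic, Acot2 is mitochondrial, and Acot3, Acot4 and Acot8 are peroxisomal. Acot1 to Acot4 are close relatives whose genes lie side by side, and several of them are known as targets of PPAR-alpha, the nuclear receptor that drives fatty acid oxidation in liver during fasting. Acot8 acts on a broad range of acyl-CoA, among them the CoA esters of bile acids. Acot12 splits acetyl-CoA and is most abundant in liver.

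The last 30 bases of each gene's longest coding sequence are shown because they carry the signal that separates the peroxisomal members from the others. They were read from the GENCODE M21 annotation (GRCm38), 5′ to 3′, and capitals mark the 3 codons before the stop codon. In Acot3, Acot4 and Acot8 these codons encode a type of carboxy-terminal tripeptide known to direct proteins to peroxisomes.
Acot3: aaaaagaagacaatcccaGCAAAACTGtga
Acot4: acccacagcagagcctccTGTAGACTGtag
Acot8: aagcctcaggtgtcagagAGTAAGCTAtag
Acot1: gagtgtttgcatgtgtctCCTAAAATAtaa
Acot2: ttccacaaacagttgggtAGCAAGAGTtag
Acot12: actcctgatggacttaaaAGTGTGTTAtaa
Acot1, Acot2, Acot3 and Acot4 are on chromosome 12, Acot8 is on chromosome 2 and Acot12 on chromosome 13. In the RefSeq order the chromosome 12 genes run Acot2, Acot1, Acot4, Acot3, with Acot5 and Acot6 next. Their coding lengths are 1260 bases for Acot1, 1362 for Acot2, 1299 for Acot3 and 1266 for Acot4, against 963 for Acot8 and 1671 for Acot12.

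The near-identity of the chromosome 12 genes limits how well their reads can be told apart. Acot1 and Acot2 are the closest pair, with 95.5% identity over 1235 aligned coding bases and a longest identical stretch of 273 bases. Of the 50-base windows of Acot1, 43.5% occur unchanged in Acot2. Acot1 and Acot3 are 86.6% identical, with a longest shared stretch of 203 bases, and Acot3 and Acot4 are 79.0% identical, with one of 111 bases. The sources used here do not give how reads matching several of these genes were counted, so the division of reads among the 4 genes, and of Acot1 and Acot2 in particular, is uncertain. In the same annotation Acot3 and Acot4 overlap Gm49366 on their own strand and 4732463B04Rik on the other, and Acot8 overlaps Snx21 on the opposite strand. Acot12 overlaps 4833422C13Rik and Gm24597 on the opposite strand and Gm27656 on its own. Of these, 4833422C13Rik averaged 0.188 FPKM in BDL+LIG, 0.133 FPKM in BDL and 0.113 FPKM in sham. Whether the counting used strand is not given either.

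Each of the 6 transcripts was measured well above the counting limit of these libraries. Whole fragments could be recovered from the deposited FPKM (fragments scaled by transcript length and by library depth). They came to 30893098 to 37381734 a library, without Alb, Apoe and COX1, for which they could not be recovered. The members had between 30 fragments, for Acot1 in BDL 1, and 3698, for Acot12 in BDL+LIG 1. All 6 passed the filter of at least 1 FPKM in at least 3 libraries, and each had at least 3 such libraries outside the group in which it was highest. Differences below are of log2(FPKM + 1), which understates the change of a low gene.

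**Figure D1:**
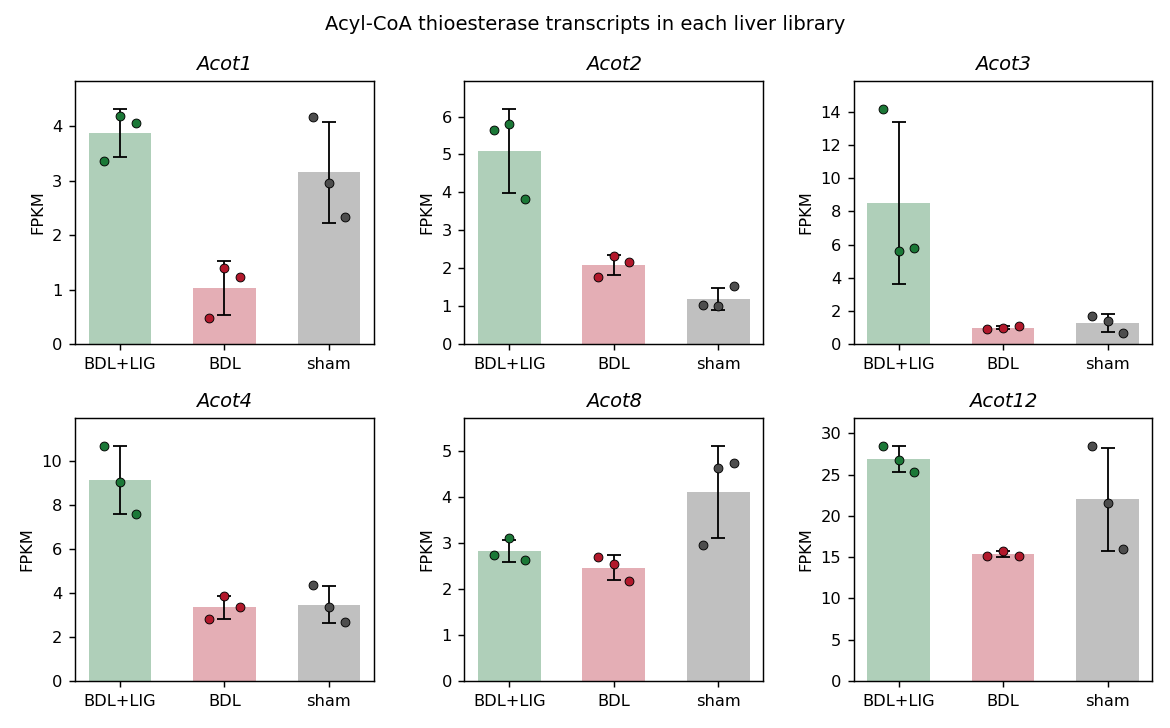
FPKM (y axis) of the 6 genes in the 9 liver libraries, with the groups BDL+LIG, BDL and sham on the x axis. Points are libraries 1 to 3 from left to right, bars are means and error bars are SD. All 3 BDL+LIG points lie above all 3 BDL points in each panel except that of Acot8.

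Acot1, the cytosolic long-chain enzyme, was low in BDL livers alone. It stood at 3.36, 4.18 and 4.06 FPKM in BDL+LIG livers, at 0.472, 1.40 and 1.23 FPKM in BDL livers, and at 4.17, 2.95 and 2.33 FPKM in sham livers. The BDL libraries lay below all others, and the BDL+LIG and sham libraries overlapped. Group means were 3.87 ± 0.441 FPKM with ligustilide, 1.04 ± 0.496 FPKM in BDL and 3.15 ± 0.932 FPKM in sham (SD, n = 3 each). Against sham, Acot1 fell in BDL livers by 1.04 ± 0.21 on the log2 scale (SE; limma, adjusted p = 0.00503), and this call was kept in every alternative that tested it. The difference between BDL+LIG and sham, 0.25 ± 0.21, did not pass the test (adjusted p = 0.350), and it was -0.18 after median-of-ratios scaling and -0.20 after quantile normalization. Between BDL+LIG and BDL the difference was 1.29 ± 0.21, a ratio of means of 3.73.

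Acot12, the acetyl-CoA thioesterase, was the most abundant of the 6 in all 9 libraries. It had 28.5, 26.8 and 25.3 FPKM in BDL+LIG livers, 15.2, 15.8 and 15.1 FPKM in BDL livers, and 28.4, 21.6 and 16.0 FPKM in sham livers. The sham libraries spread from just above the BDL level to the top of the BDL+LIG range, so BDL lay below both other groups while those overlapped. The means were 26.9 ± 1.57 FPKM in BDL+LIG, 15.4 ± 0.379 FPKM in BDL and 22.0 ± 6.24 FPKM in sham, and the ratio of BDL+LIG to BDL was 1.75. Neither comparison with sham passed the test, with -0.46 ± 0.17 for BDL (limma, adjusted p = 0.0737) and 0.31 ± 0.17 for BDL+LIG (adjusted p = 0.154). Single sham libraries decide both: without sham 3 the BDL difference was -0.66 (adjusted p = 0.00636), and without sham 1 the BDL+LIG difference was 0.51 (adjusted p = 0.00649). Under median-of-ratios scaling Acot12 fell in BDL by 0.73 (adjusted p = 0.00405), and the BDL+LIG difference turned to -0.22.

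Acot2, which hydrolyses long-chain acyl-CoA in the mitochondrial matrix, was highest in BDL+LIG livers, next in BDL livers and lowest in sham livers. Its libraries read 5.64, 5.81 and 3.83 FPKM in BDL+LIG, 1.78, 2.31 and 2.17 FPKM in BDL, and 1.04, 1.01 and 1.52 FPKM in sham. None of the groups overlapped, and Acot2 is the only one of the 6 genes ordered this way. Means were 5.09 ± 1.10 FPKM with ligustilide, 2.09 ± 0.274 FPKM in BDL and 1.19 ± 0.287 FPKM in sham. Relative to sham, Acot2 rose by 1.47 ± 0.17 in BDL+LIG livers (limma, adjusted p = 8.41e-05), in every alternative that tested it, and by 0.50 ± 0.17 in BDL livers (adjusted p = 0.0476). The second call is at the edge. It was lost without BDL+LIG 1 or 2, without any 1 of the BDL libraries, and without sham 1 or 2, with differences of 0.44 to 0.57 and adjusted p of 0.0512 to 0.163. The BDL+LIG to BDL difference was 0.97 ± 0.17 and the ratio 2.44.

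Among the peroxisomal enzymes, Acot3 showed the widest gap between ligustilide and both other groups. It reached 14.2, 5.63 and 5.78 FPKM in BDL+LIG livers, against 0.899, 0.980 and 1.11 FPKM in BDL livers and 1.71, 1.42 and 0.659 FPKM in sham livers. BDL+LIG 1 held more than the other BDL+LIG libraries, all 3 stood clear of the rest, and BDL and sham overlapped near 1 FPKM. In recovered fragments BDL+LIG 1 had 1947, BDL+LIG 2 had 763 and BDL+LIG 3 had 787, while BDL and sham libraries had 79 to 214. The means were 8.52 ± 4.88 FPKM in BDL+LIG, 0.997 ± 0.107 FPKM in BDL and 1.26 ± 0.545 FPKM in sham. Acot3 rose against sham by 1.99 ± 0.30 in BDL+LIG (limma, adjusted p = 0.000412), and by 1.60 (adjusted p = 0.000355) without BDL+LIG 1. In BDL livers the difference from sham was -0.15 ± 0.30 (adjusted p = 0.742). BDL+LIG exceeded BDL by 2.14 ± 0.30, a ratio of 8.55, and by 1.75 without BDL+LIG 1.

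Acot4, the peroxisomal enzyme for CoA esters of dicarboxylic acids, was likewise clear of both other groups in BDL+LIG livers. The BDL+LIG libraries had 10.7, 9.07 and 7.61 FPKM, the BDL libraries 2.82, 3.88 and 3.34 FPKM, and the sham libraries 4.34, 3.36 and 2.69 FPKM. Every BDL+LIG library exceeded every other library, and the BDL range lay within the sham range. Acot4 averaged 9.12 ± 1.54 FPKM in BDL+LIG, 3.35 ± 0.529 FPKM in BDL and 3.46 ± 0.833 FPKM in sham. It rose by 1.19 ± 0.18 in BDL+LIG against sham (limma, adjusted p = 0.00037), also in every alternative that tested it. BDL and sham differed by -0.03 ± 0.18 (adjusted p = 0.918), with a sign that turned without BDL 1 (0.06) or sham 1 (0.11) and after rescaling to TPM (0.04). BDL+LIG stood above BDL by 1.22 ± 0.18, a ratio of 2.73.

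Acot8, the broad-range peroxisomal enzyme, was the member whose BDL+LIG and BDL libraries overlapped. It had 2.75, 3.10 and 2.63 FPKM in BDL+LIG livers, 2.69, 2.53 and 2.16 FPKM in BDL livers, and 2.95, 4.63 and 4.74 FPKM in sham livers. Of the sham libraries only sham 1 fell within the BDL+LIG range. Acot8 averaged 2.82 ± 0.244 FPKM in BDL+LIG, 2.46 ± 0.270 FPKM in BDL and 4.11 ± 1.00 FPKM in sham. In BDL livers it fell against sham by 0.54 ± 0.16 (limma, adjusted p = 0.0293). That call was lost without any 1 of the BDL libraries and without sham 2 or 3, with differences of -0.59 to -0.45 and adjusted p of 0.0546 to 0.118. For BDL+LIG against sham the difference was -0.40 ± 0.16 (adjusted p = 0.0613), and without sham 1 it was -0.57 (adjusted p = 0.00188). The BDL+LIG to BDL difference was 0.15 ± 0.16, which turned to -0.05 with median-of-ratios scaling and to -0.11 with quantile normalization. Snx21, the gene on its opposite strand, ran at 2.76 to 3.21 FPKM in BDL+LIG, 1.83 to 2.12 FPKM in BDL and 2.21 to 3.02 FPKM in sham, and its part in the Acot8 values was not tested.

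**Figure D2:**
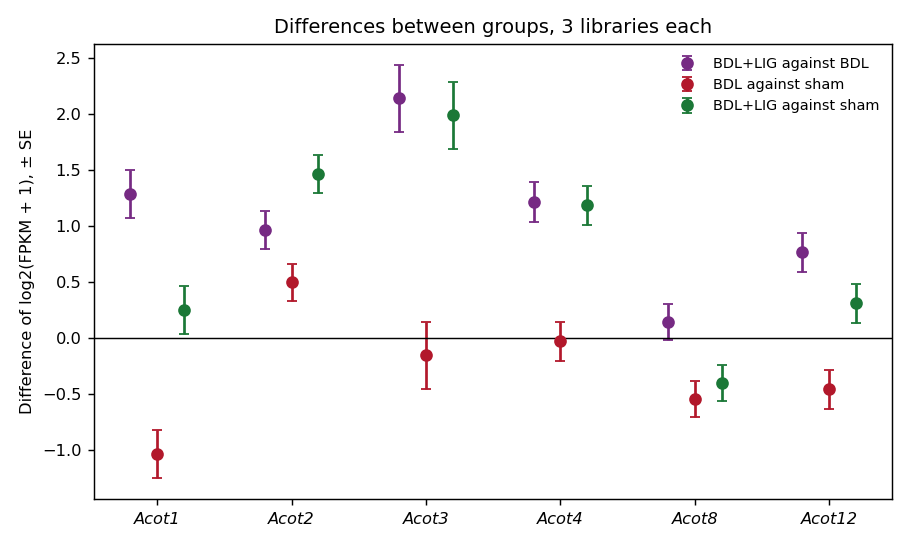
Differences of log2(FPKM + 1) between groups (y axis) for each gene (x axis), with SE, in the order BDL+LIG against BDL, BDL against sham and BDL+LIG against sham, 3 libraries in each group. BDL+LIG against BDL is highest for Acot3 (2.14) and lowest for Acot8 (0.15, with the sign turned under median-of-ratios scaling and quantile normalization), and only Acot2 lies above 0 in all 3 comparisons by more than its SE.

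Counted together, 1 member rose (Acot2), 2 fell (Acot1 and Acot8) and 3 did not pass the test in BDL livers against sham, where 29.7% of all 10142 tested genes were called, 22.9% as higher and 6.76% as lower. In BDL+LIG livers against sham, 3 rose (Acot2, Acot3 and Acot4), 0 fell and 3 did not pass, where 52.6% of all tested genes were called, 43.7% as higher and 8.92% as lower. A share of 3 in 6 is near that background. The members' median difference was -0.30 in BDL against sham, where that of all tested genes was 0.16. It was 0.75 in BDL+LIG against sham, where all tested genes had 0.34. Between BDL+LIG and BDL, 5 members were higher with no overlap of libraries, as were 40.7% of all tested genes, and the medians were 1.09 for the members and 0.18 for all tested genes. Nothing is read from these last values, since that contrast chose the members.

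Another scaling moves the baseline of all genes. After median-of-ratios scaling the median of all tested genes was -0.03 in BDL+LIG against BDL, -0.06 in BDL against sham and -0.09 in BDL+LIG against sham. Of all genes, 1194 were called in BDL+LIG against BDL with 1012 higher and 182 lower, and with that scaling 275 were higher and 355 lower. The split in BDL against sham was 2322 higher and 686 lower, and 1462 and 1466 with median-of-ratios scaling. For BDL+LIG against sham it was 4430 and 905, and 2149 and 2771 with that scaling. Acot1, Acot2, Acot3, Acot4 and Acot12 were above BDL in BDL+LIG livers under every scaling tried, at 0.51 or more on the log2 scale. That is a description only, since this contrast lay behind the choice of genes. The libraries of a group correlated at 0.983 to 0.988 in BDL+LIG, 0.993 to 0.996 in BDL and 0.964 to 0.989 in sham (Pearson's r of log2(FPKM + 1) over tested genes), with sham 1 the least like its group.

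The liver label was borne out by hepatocyte genes, and markers of other cell types moved with the groups. The 5 hepatocyte markers in the table, of 6 listed, summed to 36861 to 44858 FPKM in BDL+LIG, 29860 to 37001 FPKM in BDL and 49048 to 57803 FPKM in sham, most of it Alb and Apoa1. Against sham, 1 of the 5 fell in BDL (Ttr). Alb and Apoa1 had 0.631 and 0.675 times their sham means there, with every BDL library below every sham library, without passing the test. Cps1 and Ass1 had 1.21 and 0.98 times theirs. Apoa1 and Ttr were called lower, and Cps1 higher, in BDL+LIG against sham. All 5 cholangiocyte markers rose in BDL against sham and summed to 210 to 451 FPKM in BDL+LIG, 403 to 597 FPKM in BDL and 19.3 to 35.4 FPKM in sham, most of it Spp1. In BDL+LIG livers Spp1 had 0.665 times its BDL mean, while Krt7, Krt19, Epcam and Sox9 had 0.955, 1.10, 1.16 and 1.42 times theirs, and none of the 5 passed the test. All 5 macrophage markers rose as well, and summed to 335 to 680 FPKM in BDL+LIG, 292 to 403 FPKM in BDL and 63.1 to 91.6 FPKM in sham, most of it Lyz2. Of these, Adgre1 also rose in BDL+LIG against BDL by 1.41 (limma, adjusted p = 0.0169), with means of 14.9 ± 5.68 and 4.86 ± 1.32 FPKM, and Csf1r and Clec4f were higher there in every library without passing the test. The Adgre1 call was lost without BDL+LIG 2 or 3 or any 1 of the BDL libraries, with differences of 1.14 to 1.57 and adjusted p of 0.0512 to 0.0820. Few genes kept a call in that comparison without a BDL library, with 40, 0 and 54 of all tested genes called without BDL 1, 2 and 3. Heart and muscle markers summed to at most 0.330 FPKM and kidney markers to at most 0.0379 FPKM in any library, and the adipocyte markers Adipoq, Retn and Ucp1 averaged at most 0.0127 FPKM in a group. The adipocyte list summed to 4.59 to 8.93 FPKM in BDL+LIG, 9.06 to 10.3 FPKM in BDL and 3.47 to 5.74 FPKM in sham, nearly all of it Fabp4. The pancreas list, nearly all of it Cela1, summed to 5.24 to 6.04 FPKM in BDL+LIG, 4.47 to 7.54 FPKM in BDL and 7.89 to 23.4 FPKM in sham. Mitochondrially encoded transcripts took 5.86 to 8.58% of summed FPKM in BDL+LIG, 8.30 to 9.76% in BDL and 10.6 to 16.8% in sham. The part of these cell types and shares in the thioesterase values was not tested.

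Summed over the 6 genes, the level was highest in BDL+LIG livers, a description that the choice of genes shares. The sum was 65.1, 54.5 and 49.2 FPKM in BDL+LIG livers, 23.8, 26.9 and 25.1 FPKM in BDL livers, and 42.7, 34.9 and 27.9 FPKM in sham livers. Each group was clear of the others, in the order BDL+LIG, sham, BDL, although sham 3 stood near the BDL range. For the chromosome 12 genes alone, a sum that depends less on how shared reads were divided among those 4, the means were 26.6 ± 6.50 FPKM in BDL+LIG, 7.47 ± 1.34 FPKM in BDL and 9.07 ± 2.05 FPKM in sham. There BDL and sham overlapped, at 5.97 to 8.57 FPKM and 7.20 to 11.3 FPKM.

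Acot12 held less of the sum, and Acot3 more, in each BDL+LIG library than in any other. Acot12 made up 48.1% ± 3.94 of it in BDL+LIG livers, 60.8% ± 2.53 in BDL livers and 61.9% ± 4.73 in sham livers. Acot3 held 14.6% ± 6.23 in BDL+LIG, 3.95% ± 0.416 in BDL and 3.48% ± 0.974 in sham, and Acot4 held 16.2%, 13.2% and 9.81% in the same groups. Acot8 made up 5.08% in BDL+LIG, 9.77% in BDL and 12.4% in sham. On the FPKM scale, which is per length, the order within BDL+LIG livers was Acot12, Acot4, Acot3, Acot2, Acot1, Acot8. Of the neighbours in it, Acot4 and Acot3, Acot3 and Acot2, and Acot2 and Acot1 overlapped between libraries, whereas Acot12 and Acot8 stood apart from theirs. In sham livers the order was Acot12, Acot8, Acot4, Acot1, Acot3, Acot2, where Acot8, Acot4 and Acot1 overlapped, Acot3 and Acot2 overlapped, and Acot12 and Acot1 stood clear of the gene after them. In BDL livers it was Acot12, Acot4, Acot8, Acot2, Acot1, Acot3, where Acot8 overlapped Acot2 and Acot1 overlapped Acot3.

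**Figure D3:**
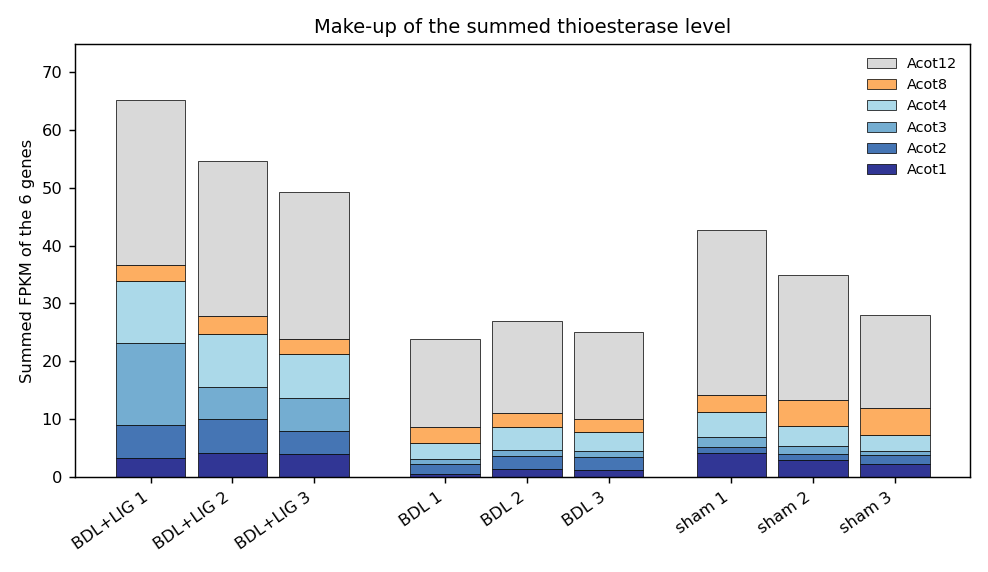
Stacked FPKM of the 6 genes (y axis) in each library (x axis). The BDL+LIG columns reach 49.2 to 65.1 FPKM, the BDL columns 23.8 to 26.9 FPKM and the sham columns 27.9 to 42.7 FPKM, and Acot12 is the largest segment in all 9.

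Across the 9 libraries, Acot3 and Acot4 were the most alike of the members, with a Pearson's r of 0.97 of log2(FPKM + 1). Acot2 and Acot4 had 0.88, Acot1 and Acot12 had 0.88, and Acot1 and Acot2, the pair with the closest sequence, had 0.31. Acot8 had -0.40 to 0.28 with the others. These values describe 9 libraries that fall into 3 groups, and shared reads can raise them among the chromosome 12 genes.

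The genes outside the family whose pattern came closest differed from member to member. For Acot1 they were Mrpl9 (r = 0.971), a mitochondrial ribosomal protein gene, then Sec22c, Rmc1, Dcaf11 and Hdac11. Mrpl9 averaged 17.8 ± 0.461 FPKM in BDL+LIG, 13.6 ± 0.924 FPKM in BDL and 16.5 ± 0.362 FPKM in sham. For Acot2 the closest were Prkar2a (r = 0.988), a regulatory subunit of protein kinase A, then Plpp1, Acer2, Plxnc1 and Rnf10. Plpp1, a lipid phosphate phosphatase gene, averaged 9.29 ± 1.54 FPKM in BDL+LIG, 4.13 ± 0.760 FPKM in BDL and 2.13 ± 0.294 FPKM in sham, the order Acot2 had. For Acot3 they were Fam210b (r = 0.973), Vps11, Erf, Sec14l4 and Retreg2, of which Sec14l4 averaged 68.9 ± 15.3 FPKM in BDL+LIG, 30.2 ± 1.08 FPKM in BDL and 29.5 ± 9.59 FPKM in sham.

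The promoters of Acot12 and Acot4 are shown because PPAR-alpha with its partner RXR is known to bind a direct repeat of AGGTCA, and these are the members whose upstream sequence comes nearest to it. The 250 bases before the RefSeq start were read from GRCm38.p6, where all 6 genes had an entry, 5′ to 3′ on the gene's plus strand, and capitals mark the window nearest to the motif.
Acot12, chr13:91741271-91741520: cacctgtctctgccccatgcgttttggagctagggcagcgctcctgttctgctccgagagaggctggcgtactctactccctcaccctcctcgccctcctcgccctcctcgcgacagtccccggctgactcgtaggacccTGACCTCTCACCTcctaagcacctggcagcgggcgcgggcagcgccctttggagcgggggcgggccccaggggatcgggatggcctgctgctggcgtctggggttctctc
Acot4, chr12:84038129-84038378: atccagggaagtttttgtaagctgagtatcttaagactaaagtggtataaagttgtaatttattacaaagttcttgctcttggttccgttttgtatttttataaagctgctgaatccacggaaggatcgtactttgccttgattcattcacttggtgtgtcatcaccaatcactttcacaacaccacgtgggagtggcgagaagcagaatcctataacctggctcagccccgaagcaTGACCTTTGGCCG
The motif searched was AGGTCANAGGTCA, on both strands. Both windows lie on the minus strand, the one of Acot12 with 1 mismatch and ending 97 bases before the start, the one of Acot4 with 2 mismatches and directly at the start. Of 32851 RefSeq promoters of this length, 0.484% held a window with at most 1 mismatch and 3.2% one with at most 2. The fewest mismatches were 3 in Acot2, 4 in Acot1 and Acot3 and 5 in Acot8. A window with at most 3 was found in 21.3% of all promoters. The shorter AGGTCA, which is contained in the longer motif, was found 1 time each in Acot4 and Acot12 and in 14.0% of all promoters. Each match is a description of the letters in this window.

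Thioesterases outside the 6 were examined as well. Of 10 others in the mouse, 5 were expressed enough to test (Acot7, Acot9, Acot13, Them4 and Mblac2), and the remaining 5 (Acot5, Acot6, Acot10, Acot11 and Them5) averaged at most 0.769 FPKM in a group. Against BDL, 0 of the 5 rose and 1 fell in BDL+LIG livers, where 11.8% of all tested genes were called, 9.98% as higher and 1.79% as lower, with a median of -0.12 for the 5. The one that fell was Acot13, a thioesterase associated with mitochondria, which averaged 65.5 ± 5.95 FPKM in BDL+LIG, 99.9 ± 1.43 FPKM in BDL and 78.4 ± 4.42 FPKM in sham. Its difference was -0.61 between BDL+LIG and BDL (limma, adjusted p = 0.0140) and 0.35 between BDL and sham (adjusted p = 0.0340). Both calls were lost without any 1 of the BDL libraries, and the second also without BDL+LIG 3, sham 2 or sham 3. In BDL+LIG against BDL, 40, 0 and 54 of all tested genes were called without BDL 1, 2 and 3.

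Acot9, a mitochondrial thioesterase, rose with ligation in both ligated groups. It averaged 5.18 ± 2.05 FPKM in BDL+LIG, 5.84 ± 1.77 FPKM in BDL and 1.40 ± 0.116 FPKM in sham. The difference from sham was 1.31 in BDL+LIG (limma, adjusted p = 0.00229) and 1.48 in BDL (adjusted p = 0.00231), and both were called with any library left out. Between BDL+LIG and BDL it differed by -0.17 (adjusted p = 0.686). Acot7, Them4 and Mblac2 passed no test.

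Baat, Acnat1 and Acnat2 are relatives of the chromosome 12 family that pass the acyl group on to an amino acid, which for Baat is the step that conjugates bile acids. Of these, Acnat2 rose in both ligated groups, with 28.0 ± 2.65 FPKM in BDL+LIG, 46.5 ± 5.48 FPKM in BDL and 3.93 ± 1.53 FPKM in sham. Its difference from sham was 2.60 in BDL+LIG (limma, adjusted p = 1.2e-05) and 3.31 in BDL (adjusted p = 3.74e-06). Between BDL+LIG and BDL it was -0.71 (adjusted p = 0.0548). Baat averaged 86.3 ± 8.00 FPKM in BDL+LIG, 91.2 ± 1.78 FPKM in BDL and 79.3 ± 8.58 FPKM in sham and passed no test.

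Acyl-CoA synthetases make the substrates that thioesterases split. Of 13 tested, 3 rose and 0 fell in BDL+LIG against BDL (Acsl1, Acss2 and Slc27a4), and 5 rose and 5 fell in BDL against sham. Among all tested genes 9.98% rose and 1.79% fell in the first comparison, and 22.9% rose and 6.76% fell in the second. Acsl1, the main long-chain synthetase of liver, averaged 40.1 ± 5.71 FPKM in BDL+LIG, 22.7 ± 0.697 FPKM in BDL and 86.1 ± 19.2 FPKM in sham. It rose by 0.79 in BDL+LIG against BDL (limma, adjusted p = 0.0197), and fell against sham by 1.07 in BDL+LIG (adjusted p = 0.000402) and by 1.86 in BDL (adjusted p = 2.38e-05). Acss2, an enzyme that makes acetyl-CoA, was ordered like Acot2. It averaged 98.0 ± 3.33 FPKM in BDL+LIG, 65.4 ± 0.652 FPKM in BDL and 43.8 ± 8.46 FPKM in sham. It rose by 0.58 in BDL+LIG against BDL (adjusted p = 0.0269) and by 0.59 in BDL against sham (adjusted p = 0.00833). Slc27a2, a very long-chain synthetase and fatty acid carrier, averaged 262 ± 13.9 FPKM in BDL+LIG, 233 ± 13.2 FPKM in BDL and 516 ± 104 FPKM in sham.

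More of the oxidation enzymes that share a compartment with the thioesterases fell than rose after ligation. Of 18 genes of peroxisomal beta-oxidation, 8 fell and 2 rose in BDL livers against sham, with a median of -0.42, and of 21 tested genes of mitochondrial beta-oxidation and ketogenesis 10 fell and 1 rose, with a median of -0.32. Over all tested genes 6.76% fell and 22.9% rose, with a median of 0.16. Acaa1b, a peroxisomal thiolase gene, averaged 107 ± 77.6 FPKM in BDL+LIG, 56.9 ± 8.72 FPKM in BDL and 235 ± 73.7 FPKM in sham. It fell in BDL livers by 1.99 (limma, adjusted p = 0.00459). Eci2, Amacr, Decr2, Cpt2, Acaa2 and Bdh1 also fell in BDL livers.

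With ligustilide, 2 of the 18 peroxisomal genes rose against BDL, among them Ehhadh, and 1 fell (Pecr), and of the 21 mitochondrial genes 1 rose (Cpt1a) and 0 fell. Over all tested genes 11.8% were called, so these counts are near the background. The medians were 0.24 and 0.15, against 0.18 over all tested genes. Ehhadh, the bifunctional enzyme of peroxisomal beta-oxidation, averaged 85.9 ± 19.2 FPKM in BDL+LIG, 44.8 ± 6.25 FPKM in BDL and 52.9 ± 12.4 FPKM in sham, a difference of 0.91 from BDL (limma, adjusted p = 0.0224). Cpt1a, which controls entry of long-chain acyl groups into mitochondria, averaged 84.9 ± 4.56 FPKM in BDL+LIG, 49.6 ± 0.371 FPKM in BDL and 62.8 ± 21.5 FPKM in sham, a difference of 0.76 (adjusted p = 0.0340).

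Of 20 other genes known as PPAR-alpha targets, 4 rose and 8 fell in BDL against sham, where 22.9% of all tested genes rose and 6.76% fell. Fabp1, the liver fatty acid binding protein, averaged 850 ± 900 FPKM in BDL+LIG, with libraries from 189 to 1874, 661 ± 34.0 FPKM in BDL and 9280 ± 1164 FPKM in sham, and fell in BDL livers by 3.80 (limma, adjusted p = 0.00129). Cd36, a fatty acid uptake receptor that macrophages also carry, averaged 16.2 ± 2.01 FPKM in BDL+LIG, 18.1 ± 3.08 FPKM in BDL and 1.55 ± 0.687 FPKM in sham, and rose in BDL livers by 2.93 (adjusted p = 5.12e-06). With ligustilide 6 rose against BDL, among them Aldh3a2, Plin5, Angptl4 and Pdk4, and 0 fell, where 9.98% of all tested genes rose. Pdk4, the kinase that restrains pyruvate oxidation, was ordered like Acot2 too, with 5.80 ± 3.03 FPKM in BDL+LIG, 1.95 ± 0.428 FPKM in BDL and 0.203 ± 0.0822 FPKM in sham. It rose by 1.13 against BDL in BDL+LIG (adjusted p = 0.0241) and by 1.29 against sham in BDL (adjusted p = 0.00389). Cyp4a10 and Vnn1, commonly used target genes named here after their values were seen, had 30.7 ± 10.8 and 9.84 ± 4.03 FPKM in BDL+LIG, 30.9 ± 7.27 and 8.09 ± 1.43 FPKM in BDL, and 49.1 ± 20.9 and 9.39 ± 1.42 FPKM in sham, and neither passed a test. Other Cyp4a genes of the list behaved otherwise. Cyp4a14 rose against sham in both ligated groups, in 20 of 20 alternatives each, and was not called between BDL+LIG and BDL. Cyp4a32 fell against sham in both, also in 20 of 20. It rose in BDL+LIG against BDL, a call held in 9 of 20 alternatives. Cyp4a31 passed no test.

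Among regulators of fatty acid catabolism 5 of 9 tested rose and 0 fell in BDL+LIG against BDL (Ppara, Ppard, Rxra, Rxrb and Lpin1), with a median of 0.52, where 9.98% of all tested genes rose and their median was 0.18. Ppara, which encodes PPAR-alpha itself, averaged 12.7 ± 0.807 FPKM in BDL+LIG, 6.97 ± 0.368 FPKM in BDL and 16.1 ± 6.33 FPKM in sham. It rose by 0.78 in BDL+LIG against BDL (limma, adjusted p = 0.0458) and fell by 1.04 in BDL against sham (adjusted p = 0.00557). BDL+LIG and sham differed in Ppara by -0.25 (adjusted p = 0.351). Rxra, the partner receptor, averaged 69.9 ± 4.62 FPKM in BDL+LIG, 45.1 ± 1.96 FPKM in BDL and 49.6 ± 3.64 FPKM in sham, and rose by 0.62 (adjusted p = 0.0131). Lpin1, a coactivator of these receptors and a phosphatidate phosphatase, had 14.6 ± 3.01 FPKM in BDL+LIG, 5.84 ± 1.76 FPKM in BDL and 7.95 ± 2.90 FPKM in sham, and rose by 1.20 (adjusted p = 0.0209). Of the alternatives that tested them, the calls against BDL held in 8 of 20 for Ppara and 6 of 19 for Ppard. They held in 16 of 20 for Rxra and in 14 of 20 for each of Rxrb and Lpin1. Those of Ppara and Ppard were lost without any 1 of the BDL+LIG or BDL libraries or sham 2. With median-of-ratios scaling, 2 genes of all the pathway lists together were called higher against BDL. After ligation alone 1 of the 9 rose (Pparg) and 1 fell (Ppara), with a median of -0.06.

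Coenzyme A, the other product of the thioesterase reaction, is cut inside peroxisomes by Nudt7. Nudt7 averaged 11.4 ± 5.52 FPKM in BDL+LIG, 16.7 ± 2.44 FPKM in BDL and 140 ± 9.79 FPKM in sham. Against sham it fell by 3.59 in BDL+LIG (limma, adjusted p = 5.67e-06) and fell by 2.99 in BDL (adjusted p = 1.76e-05). Nudt19, another peroxisomal CoA hydrolase, rose by 0.79 in BDL+LIG (adjusted p = 0.000983) and by 0.75 in BDL (adjusted p = 0.00259), with 34.7 ± 2.69 FPKM in BDL+LIG, 34.0 ± 3.96 FPKM in BDL and 19.8 ± 2.84 FPKM in sham. Of 11 tested genes for synthesis, transport and breakdown of coenzyme A, 2 rose and 0 fell in BDL+LIG against BDL (Coasy and Slc25a42), and 1 rose and 3 fell in BDL against sham, where 9.98% of all tested genes rose in the first comparison, and 22.9% rose and 6.76% fell in the second. Of 14 peroxisome biogenesis genes, 0 were called in BDL+LIG against BDL, with a median of 0.24, and 2 fell in BDL against sham (Pex6 and Pex16).

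Set against sham, BDL+LIG livers had 3 genes called higher and 6 called lower among those of peroxisomal beta-oxidation, and 1 higher and 8 lower in the mitochondrial list. Other PPAR-alpha targets had 7 higher and 4 lower, synthetases 6 higher and 3 lower, and regulators 6 higher and 0 lower. The medians were -0.13, -0.22, 0.14, 0.54 and 0.50 in this order, where that of all tested genes was 0.34. Of all tested genes 43.7% were called higher and 8.92% lower, so the shares of targets and synthetases called higher are near the background.

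The calls of BDL+LIG against BDL in these lists rest on all 3 BDL libraries. Of 114 list genes tested, 21 were called, 19 of them higher, and 0 were called without BDL 1, without BDL 2 or without BDL 3. Without BDL+LIG 1, 2 and 3 there were 12, 5 and 6 called, and without sham 1 there were 43. This loss is not particular to the lists: of all tested genes 1194 were called, and 40, 0 and 54 without BDL 1, 2 and 3. The shares called among all tested genes were 11.8% in BDL+LIG against BDL, 29.7% in BDL against sham and 52.6% in BDL+LIG against sham. With median-of-ratios scaling 3 of the 21 were called, and all 21 kept their direction in every alternative that tested them. In BDL against sham 54 were called, 17 of them higher, with 33 called without BDL 2 and 34 without BDL 3, and all 54 kept their direction, while median-of-ratios scaling called 64 with 8 higher, 45 of them shared with the 54. For BDL+LIG against sham 52 were called, 29 of them higher, and 71 with 10 higher after median-of-ratios scaling. There 50 of the 52 kept their direction, and Pex19 and Rxra turned to -0.09 and -0.06 under that scaling.

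**Figure D4:**
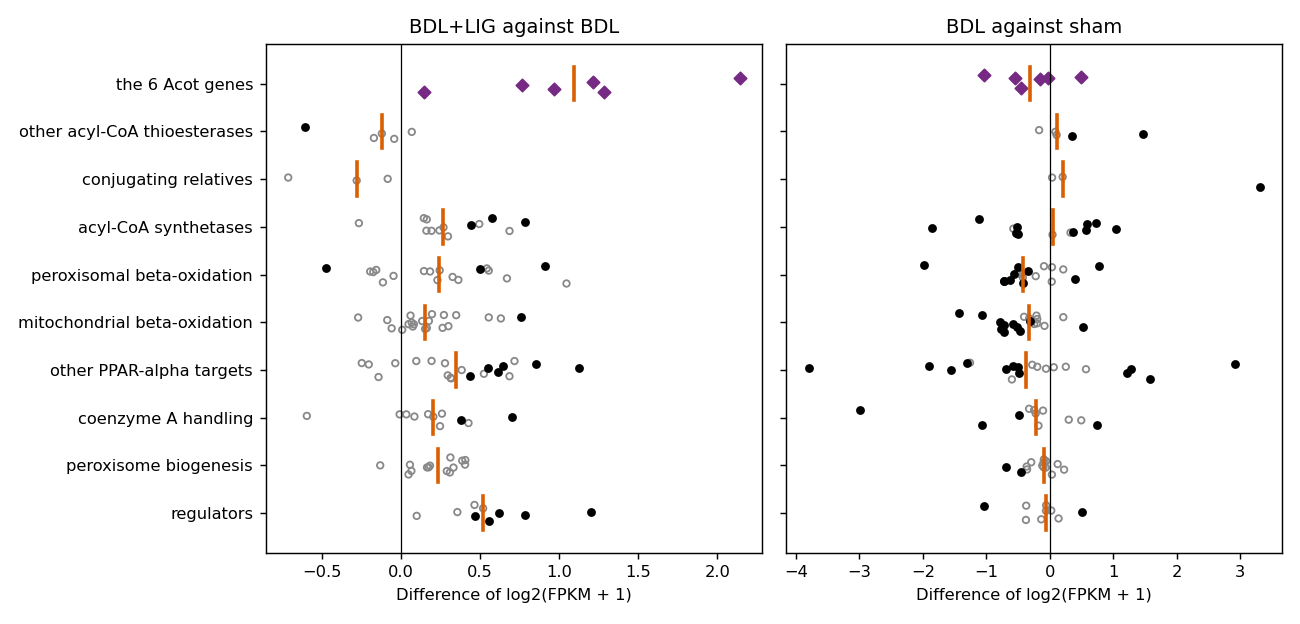
Difference of log2(FPKM + 1) (x axis) for each tested gene of the lists (y axis), in BDL+LIG against BDL on the left and BDL against sham on the right. Filled circles passed an adjusted p of 0.05, open circles did not, diamonds are the 6 Acot genes with no call shown, and vertical bars are list medians. The 6 Acot genes, chosen on the left-hand contrast, have a median of 1.09 there and -0.30 on the right, where the sign of Acot4 turned under TPM, as that of Acot8 did on the left under median-of-ratios scaling and quantile normalization.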

How the data were processed

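The authors deposited FPKM of 21470 genes in a single table whose 9 columns were matched to samples by title. Per the labels' protocols, liver RNA (TRIzol) was turned into libraries using a VAHTS Universal V6 kit. Tools named in the submitters' processing notes are fastp, HISAT2 2.1.0 and DESeq2, with the build GRCm39. The sources used here do not give the annotation or the counter. Promoters and coding sequences come from GRCm38 tables and serve for sequence only.

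Values were tested as log2(FPKM + 1) with limma 3.58.1 (lmFit, eBayes with trend) in R 4.3.3, fitted once to the 9 libraries with 1 coefficient for every group. Genes reaching 1 FPKM in 3 or more libraries (10142) entered, and p-values were adjusted by Benjamini-Hochberg over them, with a threshold of 0.05. An exact permutation test of 3 against 3 could not go below a two-sided p of 0.1. Whole fragments, within 0.02 of an integer, were recovered from the FPKM for 19446 of 19449 genes (99.98%), all but Alb, Apoe and COX1, and served for depth and for voom. The fitting code was tested on simulated data.

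The 6 genes, the pathway and marker lists and the rule for named genes were chosen with earlier results of these data known. That rule takes the 6 genes, all other thioesterases, up to 4 called genes with the smallest p per list and comparison plus those needed to name an enzyme step, some of which are not reported here, and the 5 genes most alike to Acot1, Acot2 and Acot3. Also tried were pseudocounts of 0.5 and 0.1, a filter on a mean of 5 FPKM or none, median-of-ratios scaling, TPM, quantile normalization, voom on recovered fragments, the replicate number as a block, the 2 compared groups alone, robust eBayes, a log2 change of at least 1, and each library left out.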

Additional observations from a re-analysis of the deposited data

How the results depend on the processing

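Of the members' calls against sham, those of Acot1 in BDL and of Acot2, Acot3 and Acot4 in BDL+LIG held in every alternative that tested the gene, at adjusted p up to 0.0245. The filter on a mean of 5 FPKM left out Acot1, Acot2, Acot3 and Acot8, and the minimum log2 change was applied to counts of genes only. In BDL against sham Acot2 was not called without a filter (0.50, adjusted p = 0.105), with median-of-ratios scaling (0.32), quantile normalization (0.27), voom (0.82), robust eBayes (0.50, adjusted p = 0.0501) or the replicate block (0.50), and was at 0.44 to 0.60 with a library left out. Acot8 was not called without a filter or with the 2 groups alone (-0.54 in both), and was at -0.72 to -0.45 with a library left out. Acot4 turned to 0.042 with TPM and was at -0.16 to 0.11 with a library left out. Acot12 was called with median-of-ratios scaling (-0.73) and quantile normalization (-0.60), and was at -0.66 to -0.26 with a library left out. In BDL+LIG against sham Acot1 turned to -0.18 with median-of-ratios scaling and -0.20 with quantile normalization. Acot8 was called with both (-0.83 and -0.84) and was at -0.57 to -0.30 with a library left out. Acot12 turned to -0.22 with median-of-ratios scaling, was called with TPM (0.55), and was at 0.11 to 0.51 with a library left out. In BDL+LIG against BDL Acot1 moved to 1.92 with a pseudocount of 0.1, 1.66 with TPM and 2.05 with voom, and Acot2 to 1.23 with that pseudocount, 0.75 with median-of-ratios scaling, 1.22 with TPM, 0.72 with quantile normalization and 1.27 with voom. Acot3 moved to 2.84 with the pseudocount of 0.1 and 2.96 with voom, and Acot4 to 1.42, 0.98 with median-of-ratios scaling, 1.45 with TPM and 1.45 with voom. Acot8 turned to -0.049 with median-of-ratios scaling and -0.11 with quantile normalization, and was 0.29 with TPM, while Acot12 was at 0.51, 0.69 and 0.93 in these. Genes called in BDL+LIG against BDL, 1194, came to 623 without a filter, 575 with a mean of at least 5 FPKM, 630 with median-of-ratios scaling, 2056 with TPM, 3433 with the 2 groups alone, 109 with a log2 change of at least 1, and 0 to 3144 with a library left out. The 0 of limma was without BDL 2, where 2317 genes had an unadjusted p under 0.05, and voom on all libraries called 1366. In BDL against sham, 3008 came to 1838 with a mean of at least 5 FPKM, 951 with a log2 change of at least 1 and 1894 to 4668 with a library left out. In BDL+LIG against sham, 5335 came to 2765 and 1704 under the first 2 of these and stayed at 4505 to 6922 with a library left out. The cause of these shifts was not tested. The titles number the libraries 1 to 3 in each group. Deviations of same-numbered libraries from their group means correlated at 0.01 to 0.11 between BDL+LIG and BDL and at -0.13 to 0.00 between BDL and sham. Between BDL+LIG and sham they correlated at 0.25 for number 1, -0.06 for number 2 and 0.28 for number 3. There BDL+LIG 1 with sham 3 had -0.28, and BDL+LIG 3 with sham 1 had -0.30. Deviations within a group add up to 0, so these values cannot decide whether the numbers mark a pairing or a batch. With the replicate block 742 genes were called in BDL+LIG against BDL, 2782 in BDL against sham and 5125 in BDL+LIG against sham.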
